A study of Mus musculus with 3 samples.

Results

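Cells of acinar-to-ductal metaplasia (ADM) were compared with acinar cells of the same kind of tissue, the mouse pancreas 48 h after caerulein pancreatitis. Both groups came from wild-type mice, 3 in the study, that had received caerulein, a cholecystokinin analogue that overstimulates acinar cells. No untreated pancreas was among the samples, so the acinar cells here were also cells of an inflamed organ. The cells were cut from frozen sections by laser microdissection, and their total RNA was amplified and hybridised to Agilent 1-colour arrays. The comparison used the array labelled ADM and the array labelled acinar, 2 of the 3 arrays of the series, with the duct array drawn on only to choose among the probes of a gene and for a few levels. Of 21150 genes named on the array, 13632 were above background on the ADM or the acinar array and are the genes described. Each group had 1 array, and the labels leave unsaid if the RNA of an array came from 1 mouse or several. A difference therefore has no replicate check and no test between groups, and sizes, gene families and the agreement of different probes for a gene are what the data offer.

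Acinar cells make, fold, pack and secrete digestive enzymes, and their RNA is dominated by enzyme transcripts. The PTF1 complex (Ptf1a with a bHLH partner and Rbpjl) drives the enzyme genes, and Bhlha15, Xbp1 and Nr5a2 maintain the secretory machinery. In ADM, which follows pancreatitis, acinar cells lose secretory features and take on features of duct cells, and the tissue around them fills with macrophages and activated fibroblasts.

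Promoter sequences are given for 7 list members that hold a motif known from other work. They were taken from the members of a list with a match as those furthest in the direction of the list's median. Genes of a set-aside chromosome were not eligible, whatever their difference. The lists are not uniform: the interferon and tRNA synthetase lists held genes of both directions. They run from 250 bases before to 50 after the RefSeq start of the gene on build GRCm38.p6, and are written 5′ to 3′ on the strand of the gene, with motif matches on either strand in capitals. The first pair holds the letters of both parts of the PTF1 motif, the E-box CACCTG and the TC-box TTTCCC. Each part was sought anywhere in the window on either strand, and no spacing between them was required. The elastase genes are Cela1 (chr15:100687871-100688170, minus strand), where the parts lie close together, and Cela2a (chr4:141825956-141826255, minus strand), where they lie far apart.
Cela1: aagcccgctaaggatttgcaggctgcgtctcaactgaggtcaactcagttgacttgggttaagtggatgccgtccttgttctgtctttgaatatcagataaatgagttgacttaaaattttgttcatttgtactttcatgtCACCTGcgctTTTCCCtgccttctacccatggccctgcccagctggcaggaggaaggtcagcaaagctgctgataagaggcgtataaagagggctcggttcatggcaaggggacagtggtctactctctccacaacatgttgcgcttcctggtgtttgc
Cela2a: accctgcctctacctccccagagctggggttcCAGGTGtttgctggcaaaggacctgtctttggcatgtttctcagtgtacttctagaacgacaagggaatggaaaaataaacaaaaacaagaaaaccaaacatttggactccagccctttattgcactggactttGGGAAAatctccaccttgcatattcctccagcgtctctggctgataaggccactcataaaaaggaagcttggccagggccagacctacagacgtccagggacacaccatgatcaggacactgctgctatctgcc
The second pair holds the endoplasmic reticulum (ER) stress element, CCAAT, any 9 bases and CCACG, in Derl3 (chr10:75893148-75893447, plus strand), part of the channel that returns misfolded proteins to the cytosol, and Ero1b (chr13:12565633-12565932, plus strand), an oxidase for disulfide bonds.
Derl3: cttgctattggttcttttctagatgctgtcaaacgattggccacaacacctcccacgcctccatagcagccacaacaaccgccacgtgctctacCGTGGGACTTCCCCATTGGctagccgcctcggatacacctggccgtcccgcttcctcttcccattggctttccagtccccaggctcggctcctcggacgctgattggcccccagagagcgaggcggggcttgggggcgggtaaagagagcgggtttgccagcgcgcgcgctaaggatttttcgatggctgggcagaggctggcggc
Ero1b: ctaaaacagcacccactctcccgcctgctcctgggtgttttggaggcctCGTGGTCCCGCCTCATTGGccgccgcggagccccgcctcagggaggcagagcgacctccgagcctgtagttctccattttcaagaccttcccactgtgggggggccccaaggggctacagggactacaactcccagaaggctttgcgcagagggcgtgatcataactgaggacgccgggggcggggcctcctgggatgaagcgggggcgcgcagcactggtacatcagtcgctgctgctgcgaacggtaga
Tars (chr15:11399609-11399908, minus strand), which charges threonine onto its tRNA, holds the amino acid response motif TGATGNAA of the factor Atf4.
Tars: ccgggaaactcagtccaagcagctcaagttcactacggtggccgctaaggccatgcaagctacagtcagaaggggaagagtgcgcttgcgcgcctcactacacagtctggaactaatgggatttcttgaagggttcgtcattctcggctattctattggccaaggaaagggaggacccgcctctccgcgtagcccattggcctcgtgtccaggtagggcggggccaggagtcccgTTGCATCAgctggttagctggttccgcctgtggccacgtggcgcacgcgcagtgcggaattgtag
Mmp7 (chr9:7691840-7692139, plus strand), a secreted metalloproteinase, holds the AP-1 motif TGANTCA, and the antiviral gene Rsad2 (chr12:26456403-26456702, minus strand) holds the interferon response motif GAAANNGAA.
Mmp7: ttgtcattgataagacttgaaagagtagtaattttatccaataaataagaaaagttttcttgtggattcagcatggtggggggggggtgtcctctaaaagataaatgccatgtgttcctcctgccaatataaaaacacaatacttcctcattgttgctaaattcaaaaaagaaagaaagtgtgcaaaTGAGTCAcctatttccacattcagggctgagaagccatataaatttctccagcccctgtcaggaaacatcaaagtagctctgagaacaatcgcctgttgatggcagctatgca
Rsad2: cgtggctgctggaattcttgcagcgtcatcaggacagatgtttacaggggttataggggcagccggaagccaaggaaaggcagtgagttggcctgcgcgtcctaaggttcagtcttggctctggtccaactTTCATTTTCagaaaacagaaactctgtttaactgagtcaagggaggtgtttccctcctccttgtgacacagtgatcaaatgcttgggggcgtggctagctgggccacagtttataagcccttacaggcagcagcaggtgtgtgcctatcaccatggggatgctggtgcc

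The letters of both PTF1 parts, at any spacing, stood in 7 of 25 enzyme promoters (28.0%), against 4.86% of all 32851 promoters of the same length. The E-box alone was in 14 (56.0%, against 20.2%) and the TC-box in 10 (40.0%, against 25.2%). The ER stress element was in 10 of 45 promoters of the chaperone list (22.2%), against 0.119%, 39 promoters in all. The Atf4 motif was in 5 of 13 promoters of cytosolic tRNA synthetases (38.5%) against 3.97%, and in 3 of 26 of the serine, methyl and creatine enzymes. The interferon motif was in 17 of 32 promoters of interferon-stimulated genes (53.1%, against 8.56%), the NF-kB motif GGGANTTCC in 5 of 37 of the Toll and NF-kB list (13.5%, against 1.68%) and the AP-1 motif in 6 of 28 of the metalloproteinase list (21.4%, against 7.81%). The windows contain overlapping promoters of 1 gene, and a match in letters is a description and not evidence of binding.

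Levels are log2 processed signals relative to the 75th percentile of the same array, so 0 is that percentile and 1 unit is 2-fold. The acinar array was the dimmer of the pair: its 75th-percentile signal was 35.2 intensity units against 72.2 for ADM, and 40.7% of probes were well above background against 49.7%. Of the 13632 genes compared, 10081 were well above background on both arrays, 2875 on the ADM array only and 676 on the acinar array only. A gene measured on 1 side only gives a bound, written "at least", which for a negative value means at least that far below 0. A bound that came out in the other direction was set to 0. Genes measured in ADM only could therefore not be counted as lower, nor those measured in acinar only as higher. Differences of 2-fold or more were found upward in ADM for 2966 genes (21.8%) and downward for 2999 (22.0%). These shares are the background for every count below. The median difference was 0.00 over all genes compared, and −0.26 over the genes measured on both arrays. The median SD between spots of 1 sequence was 0.110 log2 units for ADM and 0.122 for acinar, an error of spotting and scanning only.

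Agreement between probes varied with brightness. For genes at least 2-fold apart by their brightest probe, the second-brightest probe gave the same direction in 824 of 1328 genes (62.0%), was itself at least 2-fold the same way in 574 (43.2%) and at least 2-fold the opposite way in 187 (14.1%). In 119 of the 1328 the second probe gave only a bound of 0, which has no direction and was counted as not the same. Among 1820 genes under 2-fold by the first probe the share with the same direction was 55.2%. By size the share with the same direction was 60.6% of 810 genes at 2 to 4-fold, 61.9% of 339 at 4 to 8-fold and 68.7% of 179 above 8-fold. By brightness of the second probe, with both probes above background on both arrays, it was 61.7% of 316 genes below level 0, 70.7% of 266 between 0 and 2, and 87.5% of 112 at level 2 and above, where only 3 genes (2.68%) had a second probe at least 2-fold the other way. The 2 probes hybridised to the same RNA, so this is a technical check of the measurement and not a replicate. List medians given below for the second-brightest probe cover only members with such a probe compared, a smaller set of genes than the main median. Of 3169 genes with several probes compared, 255 had every probe 2-fold or more above acinar, 272 had every probe 2-fold or more below it, and 233 had probes that opposed each other by at least 2-fold.

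**Figure D1:**
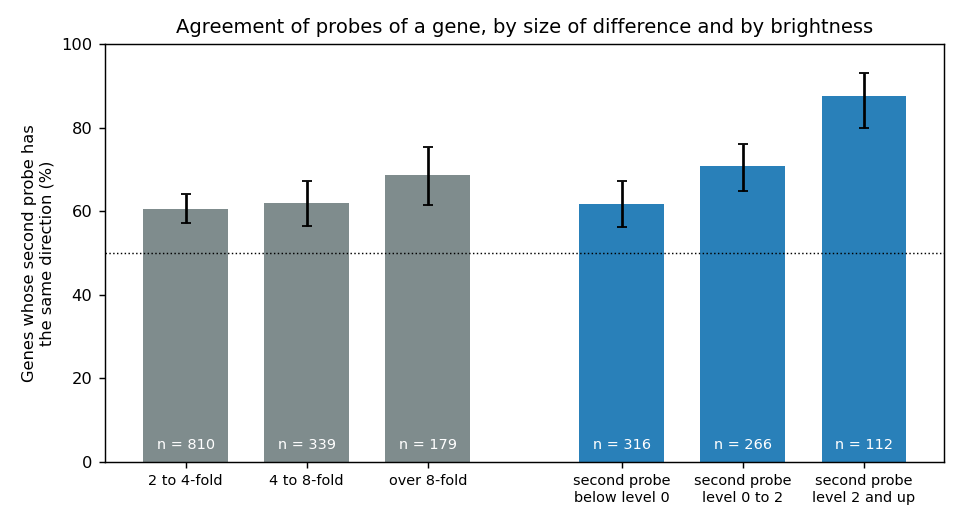
Share of genes at least 2-fold apart by the brightest probe whose second probe gave the same direction (vertical axis, percent), by size of the first probe's difference (grey) and by level of the second probe (blue); bars are shares, whiskers exact 95% binomial intervals for counting error only, n the number of genes, and the dotted line marks 50%. The share was 61.7% for dim second probes and 87.5% for bright ones.

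Size of difference also varied with level. Of the genes measured on both arrays, cut by mean level into 5 equal bins, 9.47% of the dimmest bin were higher and 31.9% lower, 24.6% and 22.1% of the middle bin, and 10.1% and 16.02% of the brightest, with medians of −0.57, −0.01 and −0.30 and SDs of 1.09, 1.53 and 1.03. Bright genes as a whole lay slightly below 0. Among 225 genes with a mean level of 7 or more outside the enzyme, granule, Reg and ribosomal lists (a level chosen after the values were seen), 205 were below 0 and the median was −0.49. Differences of bright families are read against that value.

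**Figure D2:**
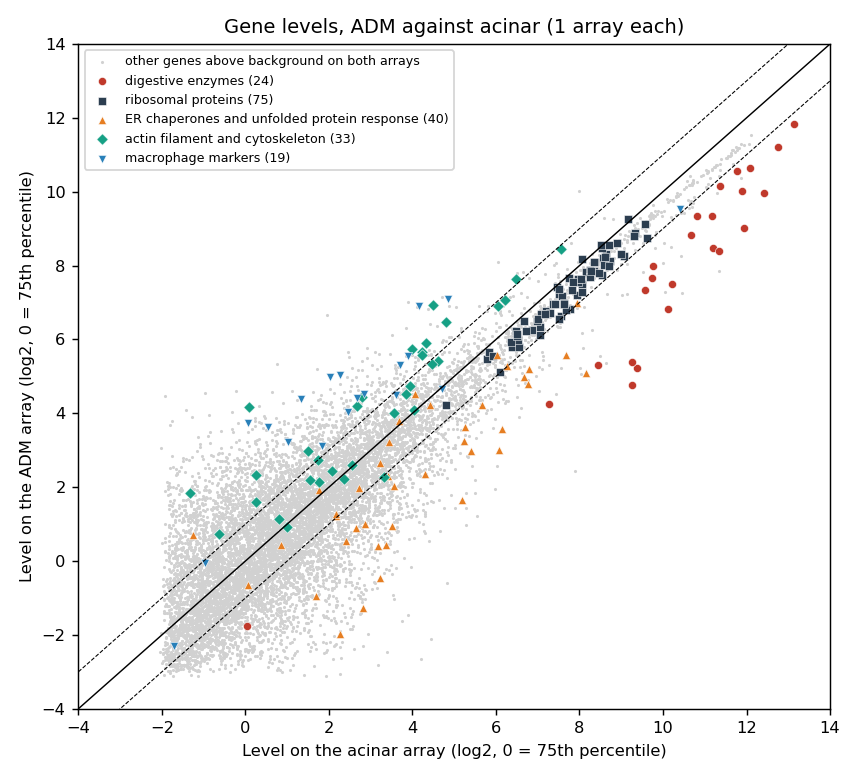
Level of each gene measured on both arrays, acinar on the horizontal axis and ADM on the vertical axis, both log2 relative to the array's 75th percentile; the solid line marks equal levels, dashed lines 2-fold, and coloured points 5 gene lists. Digestive enzymes lie below the lower dashed line, ribosomal proteins between the lines, and most actin and macrophage points above the line of equal levels.

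Digestive enzymes were lower in ADM. Of 28 listed, 24 were compared, of which 24 were at least 2-fold lower and 0 were higher, against backgrounds of 22.0% and 21.8%. The median was −2.15 (4.44-fold) and the range from −4.48 to −1.21. They had the highest median level of the 62 lists on both arrays, 8.43 in ADM and 10.74 in acinar. The elastases Cela1 and Cela2a, whose promoters are shown above, went from 9.38 to 5.24 and from 9.27 to 5.40. The fat-digesting enzymes Pnlip and Pnliprp2 stood at −3.30 and −3.03, the ester lipase Cel at −2.96, and the phospholipase Pla2g1b, the largest difference of the list, went from 9.26 to 4.78. Rnase1, a ribonuclease, went from 8.44 to 5.30 (−3.14). The smallest differences were those of the trypsinogens Try5 (−1.21) and Prss2 (−1.23) and of chymotrypsinogen Ctrb1 (−1.31, from 13.13 to 11.82), the brightest enzyme of both arrays, while the trypsinogen Try4 stood at −1.84. Amylases, trypsins and elastases are families of near-identical genes whose probes can bind relatives. The 4 enzymes with a second probe (Cela3a, Prss1, Clps and Amy2a5) had every probe at least 2-fold lower, Prss1 at −1.77 and −3.35, and Amy2a5 at −1.43 and −2.98.

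Genes of the zymogen granule and its regulation were lower in part. Of 22 members 12 were lower, 1 was higher and 9 lay within 2-fold (median −1.70). Cargo and granule proteins were lower: Zg16, a granule lectin, went from 11.34 to 7.87, syncollin (Sycn) from 10.44 to 8.26, the granule membrane protein Gp2 differed by −2.96, and the trypsin inhibitor Spink1 by −1.70. Genes of granule traffic and fusion were mixed. The granule GTPase Rab3d was lower by both probes (−1.76 and −2.15). Vamp8, the granule SNARE, differed by 0.02 (5.59 and 5.57), Rab27b by 0.65 with a second probe at −1.07, and the syntaxin-binding Stxbp2 was higher by 1.37, although its second probe read −0.27. Receptors were uneven. The incretin receptor Glp1r was the largest difference of the list, from 7.90 to 2.43, and both probes gave it (−5.47 and −5.33), while the cholecystokinin receptor Cckar, the target of caerulein, was within 2-fold (−0.92, 4.61 against 5.53). Both probes of the cargo receptor Tmed6 were lower (−3.45 and −3.25).

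Genes of protein entry into the ER were lower in most cases. Among subunits of the translocon, the signal peptidase and the oligosaccharyltransferase, 21 of 34 genes were lower, 2 were higher and the median was −1.18. Of the 15 members with several probes 10 had every probe at least 2-fold the same way, and 0 had opposing ones. Magt1, an oxidoreductase of the glycosylation complex, stood at −2.60 and −2.51 by its 2 probes, and Dad1 and Ostc of the same complex at −2.51 and −2.54. The translocon genes Sec61b (−1.62), Sec61a1 (−1.17) and Ssr4 (−1.95) and the signal peptidase subunits Sec11c (−2.23), Spcs1 (−1.88) and Spcs3 (−1.32) were lower, whereas the peptidase subunit Sec11a was higher by both probes (2.15-fold by the brighter) and the catalytic glycosylation subunit Stt3a stood at 1.13. With the arrays scaled to their medians the list lay at −0.96, and with normexp background correction at −0.90, both under 2-fold, and with the second-brightest probe at −2.34.

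ER chaperones and unfolded-protein genes were lower in 25 of 41, higher in 2, with a median of −1.62. The disulfide isomerases differed widely. Txndc5 went from 2.26 to −1.96, the pancreas isomerase Pdia2 from 8.16 to 5.09 with both probes low (−3.25 and −3.06), and P4hb differed by −2.57, while Pdia3 was within 2-fold (0.12) and Pdia5 higher (1.98). Hspa5, the main chaperone, was lower (−1.70, from 6.68 to 4.98), the lectin chaperones calreticulin (Calr, −0.21) and calnexin (Canx, 0.45) stayed within 2-fold, and Derl3 and Ero1b, whose promoters are shown above, differed by −4.07 and −3.53. Xbp1, which drives much of this list, was within 2-fold (−0.43, 5.59 and 6.01), and the stress gene Ddit3 was higher (at least 1.37). Downstream, coat and cargo genes of ER-to-Golgi traffic counted 19 lower and 3 higher of 41 (median −0.85). Cargo receptors Lman1 (−1.95), Tmed10 (−1.91) and Lman2 (−1.72) were lower by each of their probes, while Tmed2 (−0.85) and Tmed9 (−0.14) were within 2-fold. COPI coat genes were mixed as well. Copz2 was lower by both probes (−2.53 and −2.40), as were Copb1 (−1.79) and Copg2 (at least −4.77) by 1 probe each, while Copa (−0.29), Arcn1 (−0.13), Copz1 (−0.39), Cope (−0.84) and Copb2 (0.72) were within 2-fold and the probes of Copg1 opposed each other (at least 1.30 and at least −3.18).

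**Figure D3:**
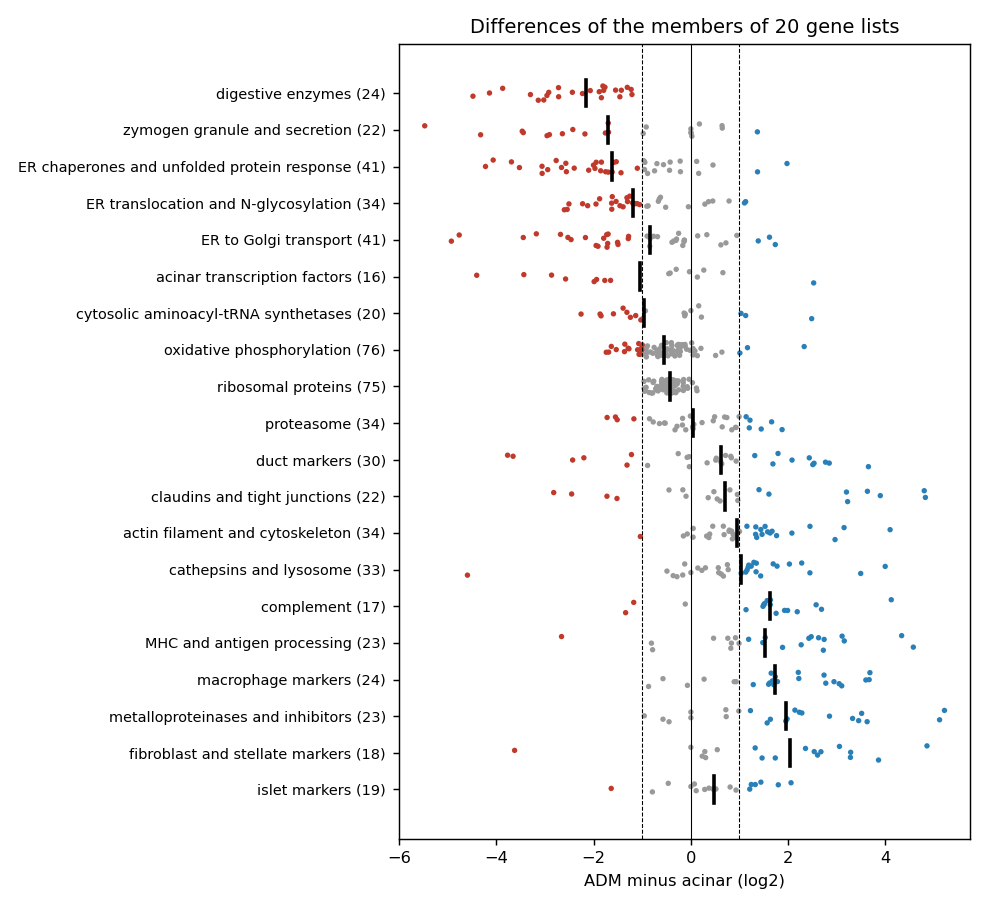
Difference ADM minus acinar (horizontal axis, log2) of each member of 20 gene lists, with the number of genes compared in brackets; each point is 1 gene, blue at least 2-fold higher, red at least 2-fold lower, grey within 2-fold, a black bar the median and dashed lines 2-fold, with points for genes measured on 1 array at their bound. Secretory lists lie left of 0 (digestive enzymes −2.15), ribosomal proteins form a tight group at −0.43, and immune and matrix lists lie right of 0.

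Supply of amino acids for secretion was lower in part. Cytosolic tRNA synthetases counted 9 lower and 3 higher of 20 (median −0.96), led by Vars (−2.26), Nars (−1.87) and Mars1 (−1.85), with Rars higher (2.48) and Gars, Sars and Aars at −0.12, −0.13 and −0.14. Mitochondrial tRNA synthetases were lower in only 2 of 13 (median 0.17). Enzymes of serine, methyl and creatine synthesis were lower in 11 of 23 (median −0.87). Psat1 of serine synthesis went from 3.91 to 0.59, and the creatine enzyme Gamt was lower by nearly the same amount on both probes (−2.33 and −2.32), but Glul, which makes glutamine, and the mitochondrial Shmt2 were higher (2.12 and 2.02). Amino acid transporters counted 8 lower and 3 higher of 22, with a median near 0 (−0.03). Among them the leucine carrier Slc7a5 went from 5.54 to 1.22 and its partner Slc3a2 differed by 0.13. Both probes of Slc7a5 were lower (−4.32 and −1.47).

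Ribosomal proteins, which every cell makes, differed little. All 75 compared lay within 2-fold, 72 of them below 0, with a median of −0.43 and a range from −0.96 to 0.13, close to the −0.49 of other bright genes. Subunits of the respiratory chain and ATP synthase were below 0 in 64 of 76, with a median of −0.54. The median was −0.30 over the brightest bin of genes and −0.49 over the other genes at level 7 or more. At least 2-fold lower were 15 (19.7%, against 22.0% of all genes) and higher 3 (3.95%, against 21.8%). The lowest were cytochrome c (Cycs, −1.74), Ndufb11 (−1.69) and Ndufb9 (−1.64) of complex I, and of the 22 members with several probes 20 had all probes on 1 side of 0. Proteasome subunits were centred on 0 (0.05, 6 higher and 4 lower of 34). Ppargc1a, a coactivator of mitochondrial genes, was well above background in acinar only and differed by at least −5.37, with both probes low.

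Glucose and redox genes differed among isoforms. Hk1, the general hexokinase, was 14.2-fold higher in ADM and Hk2, the inducible one, lower (−3.61). Hk1's 2 probes read at least 1.11 and 3.83. Pkm, the last step of glycolysis, was higher (2.21), the liver-type phosphofructokinase Pfkl lower (−2.76), and the middle of the pathway (Aldoa 0.20, Gapdh 0.45, Ldha 0.51) within 2-fold. G6pdx, which feeds the pentose phosphate pathway, was 19.2-fold higher, and heme oxygenase Hmox1 was higher by both probes (2.43 and 2.59). Keap1, which restrains the antioxidant factor Nrf2 (Nfe2l2, −0.02), was lower (−3.66). Glutathione transferases were mixed. The mu-class genes Gstm2 (−2.48) and Gstm1 (−1.04) and the pi-class Gstp1 (−1.51) were lower by all their probes, the microsomal Mgst1 (1.25) was higher, and the probes of Gstm6 and Gstm7 opposed each other. These are close relatives whose probes may bind more than 1 member.

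Factors that maintain acinar identity were uneven. Of 16, 8 were lower, 1 higher and 7 within 2-fold (median −1.05). The median was under 2-fold under 6 of the 9 alternatives that gave one, and −0.45 over probes above background on both arrays. Nr0b2 (−4.41), Bhlha15 (−2.58), Gata4 (−1.99) and Rbpjl (−1.77) were lower. Ptf1a was within 2-fold (2.67 and 2.70), as was Nr5a2 by its brighter probe (0.27, the other probe −1.52). Rbpj, the general Notch partner that replaces Rbpjl in immature PTF1, was higher by both probes (2.53 and at least 2.58), opposite to Rbpjl. Among progenitor factors Sox4 was higher by both probes (at least 2.94 and 3.16), Hnf4a was higher (1.88), Foxa2 within 2-fold (0.76), and Pdx1 lower (−2.15).

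Duct genes were a mixture. Of 30 compared, 10 were higher, 6 lower and 14 within 2-fold (median 0.62). The median was 2.03 with the second-brightest probe, but over few genes, as only 5 of the 30 had several probes compared. Cftr, the chloride channel of duct cells, was not well above background on either array. The ion pump subunit Atp1b1 was 12.6-fold higher, the adhesion gene Epcam 5.79-fold, the water channel Aqp1 6.82-fold and the Notch target Hes1 5.69-fold. Krt19 (0.61, 2.94 against 2.33, and 4.37 on the duct array) and Sox9 (0.64) were within 2-fold. Onecut1 (−3.77), Ggt1 (−3.66) and the anion exchanger Slc26a6 (−2.43) were lower. Of 12 keratins compared 1 was higher (8.33%, against 21.8% of all genes) and 4 were lower (33.3%, against 22.0%). Their median was −0.24 and the lowest stood at −1.56. The higher one was Krt7 (at least 2.85), measured in ADM only, a bound that could not have pointed lower.

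Junction genes differed from member to member. Cldn4, a barrier claudin, went from −0.23 to 4.59 and both probes gave it (4.82 and at least 5.19), Cldn23 and the pore-forming Cldn2 were well above background in ADM only (at least 4.80 and at least 3.63), and Cldn10, an ion-selective claudin, was lower (−2.82). Cldn3 (−0.10) and Cldn7 (0.36) were within 2-fold. In all 8 of 22 tight junction genes were higher and 4 lower. In adherens junctions and desmosomes 7 of 21 were higher and 1 lower. The cadherin Cdh3 (at least 4.38) and the envelope protein Evpl (at least 4.46) were measured in ADM only, vinculin (Vcl) was higher by both probes (2.36 and 2.54), and E-cadherin (Cdh1) was within 2-fold (0.01).

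Actin genes lay mostly above 0. Of 34 members 16 were higher, 1 lower, 31 above 0, with a median of 0.95. Flna, an actin crosslinker, was 17.1-fold higher (0.09 to 4.18), Myh9 of non-muscle myosin stood at 1.67, Actb at 1.58 and all probes of Actg1 between 1.24 and 2.07. S100 calcium-binding genes counted 6 higher and 1 lower of 13. S100a4 (at least 5.24, both probes), S100a6 (4.59, 0.75 to 5.34), S100a11 (3.22), S100a10 (2.65) and S100a14 (at least 3.24) were higher, while S100a1 (−0.01) and S100a16 (0.13) were within 2-fold. Annexins were higher in 6 of 12 and lower in 2, with Anxa5 at 1.58 and Anxa2 at 1.36. Of the 3 annexins with several probes only Anxa7 had them on 1 side of 0 (1.32 by both). Anxa1 read 3.19 and −0.43, and Anxa11 0.97 and at least −6.00. Laminins and integrins counted 11 higher and 4 lower of 21. The integrin Itgb5 was at 4.15, Itgav was higher by both probes (2.52 and at least 3.04), and Lama4 lower (−2.39). S100a4, the actin genes and Lcp1 (1.34) are also abundant in leukocytes and fibroblasts, whose markers are given below, and their part in these differences was not tested.

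Signalling genes were higher in part. In the EGFR and MAPK list 14 of 29 were higher and 4 lower (median 0.96, but 0.31 over probes above background on both arrays and 0.17 with the second-brightest probe). Erbb3, a receptor of the family, was 16.9-fold higher, Egfr itself within 2-fold (−0.53), Hbegf, a ligand, higher (at least 2.30), and Egf lower (at least −4.03). The feedback inhibitors Dusp10 (at least 3.28), Spry1 (at least 2.68) and Spred2 (at least 2.57) were measured in ADM only. In the Notch list 6 of 21 were higher (28.6%) and 4 lower (19.0%), near the shares of all genes (median 0.42, but −0.57 with the second-brightest probe). The ligand Jag1 (3.07) and the target Hey1 (at least 2.86) were higher and the glycosyltransferase Lfng lower (−3.02). The receptor Notch1 was lower by both probes (at least −3.22 and −1.59), while the brighter receptor Notch2 stood at 1.33 with a second probe at −0.57. In the Hippo list 6 of 18 were higher (33.3%) and 3 lower (16.7%), with a median of 0.41. The YAP target Ccn2 was higher (at least 3.82), with Yap1 within 2-fold (0.39) and Wwtr1 higher (at least 2.79). Tead2 was lower by both probes (−1.49 and −1.42), and Nf2 read −2.53 with a second probe at 0.21 or more. In the TGF-beta list 14 of 30 were higher (median 0.92), led by Thbs1 (at least 5.17), which activates the ligand, and its target Tgfbi (at least 4.83), while Bmp4 was lower (−2.31). The early-response genes Atf3 (2.90), Jun (2.67) and Klf2 (4.09) were higher, Nr4a2 was lower by both probes (−3.53 and −2.81), and Egr1 was within 2-fold (0.46).

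Growth arrest and division genes pointed in different directions. Among p53 targets and cell-cycle inhibitors 11 of 28 were higher and 4 lower (median 0.68, but 0.00 with the second-brightest probe). Cdkn1a was higher by both probes (at least 1.40 and at least 3.69), and Bax (2.32), Sesn2 (2.51) and Gadd45a (2.56) were higher, with Trp53 itself within 2-fold (0.06). Of cell-cycle genes 15 of 43 were lower and 5 higher (median −0.30, but −1.07 with the second-brightest probe). The mitotic genes Ccna2 (at least −4.81), Ube2c (−3.07) and Aurka (−2.51) were lower, both probes of Mki67 read −1.33 and −1.28, and the replication helicase genes Mcm3, Mcm4 and Mcm5 were at 0.05, 0.05 and 0.65.

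Secreted genes of injury differed by kind. The Reg and acute-phase list counted 7 lower and 4 higher of 14 (median −1.04, under 2-fold in 5 of 9 alternatives). The Reg genes compared were lower, with Reg3g at −2.95, Reg1 at −1.48 (from 11.86 to 10.38) and Reg2 at −1.32, while Lcn2, an iron carrier of inflammation, was 26.2-fold higher (1.96 to 6.67) and haptoglobin (Hp) 10.1-fold. The trefoil and gastric list was lower in 9 of 17 and higher in 2 (median −1.11, but −0.44 over probes above background on both arrays). Tff2 differed by −2.78, and Fcgbp (at least −4.74), Agr2 (at least −3.57) and Spdef (at least −1.73) were well above background in acinar only.

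Immune lists had more genes higher than lower in ADM. Of 24 macrophage markers 18 were higher and 0 lower (median 1.72, but 0.68 with the second-brightest probe, over fewer members). Of these 24, 5 were measured in ADM only and could not have been counted as lower. The antigen-presenting chain Cd74 went from 3.90 to 7.01, and the class II loading genes H2-DMa (4.34) and H2-DMb1 (at least 4.58) were further apart than the class I genes H2-K1 (0.82) and H2-D1 (0.92). Lipid-associated macrophage genes were higher in 10 of 16, with Gpnmb (at least 5.33), Plin2 (at least 4.36) and Trem2 (2.84) ahead, and Apoe bright on both arrays (10.03 against 7.99). Genes of the lysosome counted 17 higher and 1 lower of 33. Ctsh was at 2.28, and both probes of Ctsd read 1.30 and 1.68. The lysosome median, 1.03, was 0.77 with the mean of all probes. Complement was higher in 14 of 17 (median 1.63), with C3 going from 4.43 to 6.42 and its receptor C3ar1 the highest (at least 4.12). The other direction held C7 (−1.18) and Cfd (−1.34). Chemokines Ccl9 and Ccl6 went from −1.41 to 4.10 and from −0.87 to 3.96.

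Interferon and Toll lists held genes of both directions. Of 34 interferon-stimulated genes 19 were higher and 6 lower (median 1.12). Rsad2, whose promoter is shown above, was higher (at least 4.39), as were Ifit3 (2.73) and Irf1 (2.92), while Oas2 (−2.48) and Cmpk2 (at least −5.31, its other probe −0.42) were lower. With the second-brightest probe the median of this list was −0.21, over only those members with such a probe compared. In the Toll and NF-kB list 16 of 29 were higher and 3 lower (median 1.24, but 0.56 with normexp and 0.49 over probes above background on both arrays). The adhesion receptor Vcam1 was higher by both probes (4.05 and at least 4.29), as were the NF-kB subunit Relb (1.72 and 2.24) and the inhibitor Nfkbib (1.26 and 1.98). Il1rn (at least 3.59) and Tlr4 (at least 2.97) were measured in ADM only, and Irak3 in acinar only (at least −3.74).

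Stromal genes were higher as well. Fibroblast and stellate markers were higher in 12 of 18, among them Pdgfrb (3.06) and Thy1 (at least 4.86), and the contractile gene Acta2 lower (−3.63, 2.04 to −1.58). Collagens were higher in 14 of 27 (median 1.06, but 0.55 with normexp), Col3a1 from 4.36 to 6.83, and 11 of the 27 were measured in ADM only. Metalloproteinases and their inhibitors counted 15 higher and 0 lower of 23 (median 1.95, but 1.33 with normexp). Of these 23, 9 were measured in ADM only and could not have been counted as lower. Mmp7, an epithelial protease whose promoter is shown above, was measured in ADM only (at least 5.22), as was the inhibitor Timp3 (at least 5.12), both probes of Mmp11 were higher (at least 2.11 and 3.45), and Mmp2 was higher (at least 3.51).

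Markers of other cells were measured on both arrays, and some on the ADM array only. Endothelial markers counted 6 higher and 2 lower of 10 (median 1.44, but 0.54 with normexp), with Vwf (at least 2.99), Pecam1 (at least 1.47) and Cdh5 (at least 1.40) measured in ADM only. Kdr, brighter than these (3.13 in ADM and 3.75 in acinar), was below 0 by both probes (−0.62 and −2.36). T and NK cell markers counted 6 higher and 1 lower of 12 (median 0.64, but −0.17 over probes above background on both arrays), with the T-cell receptor genes Cd3d (at least 1.70) and Cd3g (at least 2.44) measured in ADM only and Cd3e lower (−1.04). Of 7 neutrophil markers 2 were higher and 1 lower, S100a9 among the higher (at least 3.44). Insulin transcripts were bright on each (Ins2 9.25 in ADM and 8.80 in acinar, Ins1 8.61 and 7.80). The log2 of the summed signal of the macrophage list, on the scale of the levels, was 10.38 in ADM, 10.57 in acinar and 9.41 in duct, and that of the fibroblast list 7.62, 5.96 and 7.83. The largest part of the macrophage sum was 1 Itgam probe at 9.54 and 10.41, whose difference was −0.87 where the other 2 Itgam probes gave at least 2.90 and −0.15. In such bulk RNA fewer cells of a type and less RNA per cell cannot be told apart. Few markers of the rarer lists could be compared, with 2 of 2 mast cell and eosinophil, 2 of 3 B and plasma cell and 1 of 2 erythroid genes higher. Kit, of mast cells, was at 1.67 in ADM and 0.38 in acinar, and the globin gene Hba-a1 at 3.24 and 0.24. Alas2 (erythroid), Ms4a1 (B cell) and Cpa3 (mast cell) were not well above background on either array. How far macrophages, fibroblasts and the other cells beside the dissected cells carry the immune and matrix differences was not tested.

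Some probes gave only a bound, which could not have pointed the other way. Genes with every probe at least 2-fold the same way were picked from these data by that agreement, which is therefore no further support. Among the leading ones higher in ADM were the growth factors midkine (Mdk, at least 4.13 and 4.14) and pleiotrophin (Ptn, at least 2.69 and 4.17), the phospholipid scramblase Plscr1 (at least 4.10 and at least 4.21), surfactant protein Sftpd (at least 4.15), the lipase Pla2g7 (at least 3.93) and the leukocyte gene Laptm5 (2.55 and 3.67). By its brighter probe Plet1, an epithelial surface gene, was at 2.80 in ADM, 6.18 on the duct array and not well above background in acinar. Its other probe was above background on both arrays and read 1.54. Lower in ADM were the kinase Map3k13 (−6.87 and at least −4.85), the RNA-binding Tia1 (−6.57 and at least −2.82), the kinase Brsk2 (at least −5.30), the RNA-binding Larp7 (−4.62 and −4.52), the peptide hormone receptor Vipr2 (−4.45) and Hilpda, a lipid droplet gene (at least −4.21). Tia1 and Map3k13 were dim on the duct array too (−4.46 and −2.60, against −2.12 and −2.66 in ADM).

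**Figure D4:**
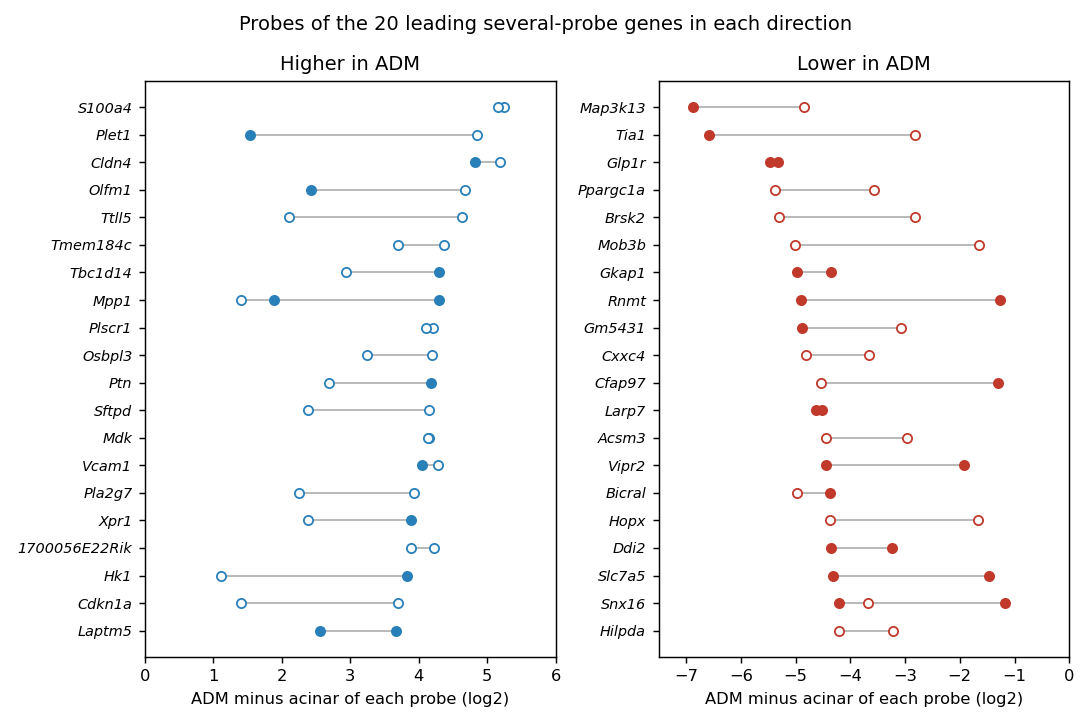
Difference ADM minus acinar (horizontal axis, log2) of each probe of the 20 genes with the largest difference in each direction among genes whose probes were all at least 2-fold the same way; filled points were measured on both arrays, open points are bounds, and grey lines join probes of a gene. The probes of Glp1r (−5.47 and −5.33) and Mdk lie close together, while those of Rnmt (−4.90 and −1.27) and Hk1 lie far apart.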

How the data were processed

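Total RNA of the dissected cells was amplified from 1.181 ng and labelled with Cy3 from 2.0 ug of cDNA, per the labels' protocols. The authors deposited spot intensity tables on a linear scale, in which Agilent Feature Extraction 11.5.1.1 had subtracted background, per the file headers, with other columns of 0 or 1 flags for outlier spots, saturation and signal well above background. The authors also deposited log2 values, which equal the scanner's log2 signal plus a shift specific to the array (ADM −6.17, acinar −5.13, to within 0.001 in all 32905 matched probes), so its scale and direction are known, and its column medians were −0.56 and −0.57; what the shift was meant to centre on is unknown.

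Control spots (3671 of 62976) and outlier spots (117 on ADM, 115 on acinar) were left out, spots of a probe were averaged, and the 75th percentile over 55664 probes was subtracted. Promoters are from RefSeq. Probes were named through RefSeq accessions (28020 with 1 symbol, 0 with several, 27644 unnamed here, 21150 genes), and the brightest probe over the 3 arrays stood for a gene. A side not well above background took its own level or, if higher, the lowest level among probes that passed (−3.15 on ADM, −2.04 on acinar). Genes were counted at 2-fold. The 62 lists (1549 genes, 1526 on the array, 1326 compared, 2 symbols updated) and their members were chosen with earlier results of these data known. List medians are given for at least 5 compared genes, a minimum set after the values were seen. Named genes are up to 8 of the largest differences in each direction and the brightest of a list, and members within 2-fold where a count needs them. Some but not all members with opposing probes are named, as are leading genes whose probes all agree. Other genes named were chosen after their values were seen. Intervals are exact binomial at 95%. The calculation was tested on simulated data in which every probe compared was above background on both arrays, so the handling of bounds was not tested. Tools were limma 3.58.1 in R 4.3.3, and Python with numpy, pandas and scipy. Alternatives were another background correction (normexp, offset 16), other scalings, filters, probe choices, a 4-fold threshold and the deposited log2 table. Values of some list members are not reported here.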

Additional observations from a re-analysis of the deposited data

Results flagged for a closer look

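Unnamed probes carried signal that the gene lists cannot use. Of 27644 probes with no gene name here, 12164 exceeded background on the ADM array, the acinar array or both, 8341 of them on both. Among these 12164, ADM was 2-fold or more above acinar for 1303 (10.7%) and below it for 2832 (23.3%), against 21.9% and 22.4% of the 17423 named probes compared. The difference in shares was not tested.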

How the results depend on the processing

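Up to 10 alternatives were run for a result. The second-brightest probe gave a median for 7 of the 23 lists at 2-fold or more and 24 of the 33 others, as the rest had too few genes with a second probe. One alternative changed the filter and the bounds together: no filter, with bounds replaced by measured values. Of 214 recomputed medians of the 23 lists at 2-fold or more, 174 stayed there, 38 came under 2-fold in the same direction and 2 reversed: interferon-stimulated genes at −0.21 with the second-brightest probe, and serpins at −0.076 with no filter and measured values for bounds. Of 320 for the other lists, 25 passed 2-fold. The cause of these changes was not tested.

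With normexp, medians were −0.90 for ER translocation, −0.72 for Reg and acute-phase genes, −0.83 for acinar transcription factors, −0.80 for the trefoil list, 0.56 for Toll and NF-kB, 0.73 for chemokines, 0.55 for collagens, 0.54 for endothelial markers, 0.77 for interferon-stimulated genes, 0.73 for laminins and 0.96 for serpins. With median scaling they were −0.96 for ER translocation, −0.81 for Reg, −0.82 for acinar factors and −0.88 for trefoil. With the percentile over probes above background on both arrays, Reg, acinar factors and trefoil stood at −0.92, −0.94 and −0.99. Quantile normalization gave −0.64 for Reg and −0.97 for acinar factors, and the authors' deposited table −0.98 and −0.997. Restricting to probes above background on both arrays gave 0.49 for Toll, −0.45 for acinar factors, 0.97 for annexins, 0.90 for lysosome, 0.72 for chemokines, 0.86 for collagens, 0.93 for lipid-associated macrophage genes and −0.44 for trefoil. With no filter and measured values for bounds, chemokines, collagens and laminins stood at 0.70, 0.89 and 0.73. The mean of all probes gave 0.77 for lysosome and 0.95 for chemokines, the second-brightest probe 0.55 for laminins and 0.68 for macrophage markers, and ranking probes without the duct array 0.98 for endothelial markers.

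Counts moved by over 1.5 times to 1784 lower genes with normexp (2211 higher), 7969 lower of 21150 with no filter and measured values for bounds (3974 higher), 1747 higher with both arrays above background (2323 lower), and 730 higher and 785 lower with the second-brightest probe, where only 3189 genes could be compared. At 4-fold 1243 genes were higher and 1100 lower. Of all calls 49.7% were higher, against 58.9% with median scaling (3522 higher, 2459 lower), which moved the median of all genes to 0.05. The share of agreeing probes, 62.0%, was 66.0% with normexp, 64.7% with median scaling, 69.3% with both arrays above background and 67.8% with no filter and measured values for bounds.

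No paired analysis was possible because each group had 1 array, and for the same reason none was left out. Of the 13632 genes, 2875 have only a bound on the acinar array, the dimmer one, and 676 on the ADM array.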
